A study of Homo sapiens with 12 samples.

Results

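HOXB13-expressing T47D cells were compared with control T47D cells while both were exposed to estradiol. T47D is an established human breast cancer line of luminal epithelial origin that expresses the estrogen and progesterone receptors. The members were chosen by their labels alone: the 3 libraries of HOXB13 cells given 2 nM estradiol and the 3 libraries of control cells given the same dose, which are 6 of the 12 libraries in the series. The other 6 libraries are HOXB13 and control cells given the ethanol vehicle, and they are used here only for a second look at the same genes. All cells were plated for 24 h in medium with 10% serum, kept for 72 h in medium with steroid-depleted (charcoal-stripped) serum, and treated for 24 h. The labels call the control genotype wild type or normal. They do not say whether control cells carried an empty vector, how many clones the HOXB13 cells came from, or whether the replicates were separate cultures. The p-values thus reflect how much these particular libraries scatter, and that scatter may be technical.

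HOXB13 is a homeodomain transcription factor of the posterior end of the HOXB cluster. It is normally active in prostate, rectum and tail bud, and in prostate it binds DNA together with the androgen receptor and FOXA1. In estrogen receptor-positive breast cancer a high ratio of HOXB13 to IL17RB, an interleukin receptor, has been used as a marker of poor outcome on tamoxifen. Estradiol binds the estrogen receptor ESR1, which then occupies enhancers opened by FOXA1 and GATA3 and raises targets such as GREB1, PGR and TFF1. The comparison asks how expression differs with HOXB13 while that receptor is active.

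The promoters of 3 genes that the results turn on are shown first, because HOXB13 is a DNA-binding protein with a known preference for the 8-letter motifs CCAATAAA and CTCGTAAA. The stretches come from RefSeq on the GRCh38.p14 build and are written 5′ to 3′ on the strand of the gene. Capitals mark either motif, or its 6-letter end AATAAA or CGTAAA, read on either strand. BCHE (butyrylcholinesterase) and GJA1 (the gap junction protein connexin 43) were higher in HOXB13 cells, and SOD3 (extracellular superoxide dismutase) was lower. The GJA1 stretch after the start is shown because it holds CTCGTAAA on the opposite strand, where it reads TTTACGAG.
BCHE, 250 bases before the start, chr3:165837424-165837673, minus strand: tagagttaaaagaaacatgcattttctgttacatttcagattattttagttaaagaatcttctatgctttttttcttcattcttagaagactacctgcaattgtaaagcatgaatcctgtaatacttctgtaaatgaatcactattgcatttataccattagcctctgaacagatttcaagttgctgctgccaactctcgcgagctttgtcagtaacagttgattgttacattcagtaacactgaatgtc
GJA1, 250 bases before the start, chr6:121435396-121435645, plus strand: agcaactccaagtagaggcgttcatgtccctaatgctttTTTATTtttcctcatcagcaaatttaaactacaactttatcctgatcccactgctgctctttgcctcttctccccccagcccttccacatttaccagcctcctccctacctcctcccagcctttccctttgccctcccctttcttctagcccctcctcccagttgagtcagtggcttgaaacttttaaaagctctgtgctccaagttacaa
GJA1, the first 30 bases from the start, chr6:121435646-121435675, plus strand: aaaagctTTTACGAGgtatcagcacttttc
SOD3, 250 bases before the start, chr4:24795323-24795572, plus strand: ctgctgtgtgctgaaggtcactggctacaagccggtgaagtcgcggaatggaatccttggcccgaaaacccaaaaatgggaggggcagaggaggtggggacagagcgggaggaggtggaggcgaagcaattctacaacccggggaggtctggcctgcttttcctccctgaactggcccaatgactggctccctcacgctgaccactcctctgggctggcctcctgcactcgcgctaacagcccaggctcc

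The windows searched ran from 250 bases before to 50 bases after each start, on both strands, and each 6-letter end lies within its own 8-letter motif. Of the 20 genes other than HOXB13 that were raised in the fit with the replicate number as a block, described further on, 16 matched a promoter. GJA1 was the only one of these 16 with CTCGTAAA (6.25%, against 0.0833% of the 10805 tested genes that matched), and 0 held CCAATAAA (0.731% of all matched). The shorter end AATAAA or CGTAAA was present in 3 of the 16 (18.75%, against 12.9% of all matched). Among the 37 lowered genes 24 matched, and 0 held either 6-letter end. A match of letters is a description of the window and not a binding site, and the counts per gene do not show which start site the cells used.

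HOXB13 was checked in every library first. It had 110, 92 and 97 counts in HOXB13 replicates 1, 2 and 3 in estradiol, and 0 in each of the 3 control libraries. The groups did not overlap. With 3 counts in the pooled control group as a floor HOXB13 would be 106.7-fold higher, and an exact 95% interval put the ratio above 86.3 (counting error only). In vehicle it had 112, 106 and 108 counts in HOXB13 cells against 2, 0 and 1 in control cells. The symbol's counts pool any introduced copy with the endogenous gene. In bulk RNA, more cells with a transcript and more transcript in each cell cannot be told apart, here or for any gene that follows.

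The libraries had 17679824 to 20557300 counts in estradiol and 14799 genes were tested. Luminal epithelial markers were high in all 6, with KRT8 at 8104 to 11673 CPM (counts scaled to library size) and EPCAM at 169 to 195 CPM. Leukocyte, endothelial, prostate and colon markers were at or near 0: CD3E, CDH5, KLK2, KLK3, CDX1 and CDX2 had 0 counts and PTPRC did not exceed 0.104 CPM. The summed level of the 5 basal or myoepithelial markers was 23.0 to 24.5 CPM in control cells and 26.8 to 35.3 CPM in HOXB13 cells. Nearly all of it was ACTA2, a smooth muscle actin, while KRT5, KRT14 and TP63 did not exceed 0.313 CPM in any estradiol library. The part of this difference in the results below was not tested.

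Replicate 2 stood apart in both groups. The first principal component of the 6 estradiol libraries (33.1% of the variance) placed the 2 libraries numbered 2 at 34.9 and 23.4 and the other 4 between -21.4 and -6.63. The second component (22.2%) placed all 3 HOXB13 libraries above all 3 control libraries. Across genes, the deviations of equally numbered control and HOXB13 libraries from their group means were correlated at 0.124, 0.311 and 0.123 for numbers 1, 2 and 3, above the minimum of 0.1 set for treating numbers as pairs. Unequal numbers gave -0.205 to 0.120, and the highest of these, control 1 with HOXB13 3, was close to the values of numbers 1 and 3. What a number marks is not stated in the labels. Deviations sum to 0 within a group, so a shift of replicate 2 alone also gives positive values for numbers 1 and 3, and the check cannot tell the 2 cases apart. The comparison in estradiol was therefore fitted without and with the replicate number as a block, a term that removes what equally numbered libraries share. Unless stated, the block was fitted over all 12 libraries, which gives each number the same term in estradiol and in vehicle. Whether estradiol and vehicle libraries of equal number deviate together was not checked. Log2 fold changes and their standard errors (SE) are from the fit without the block unless stated.

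**Figure D1:**
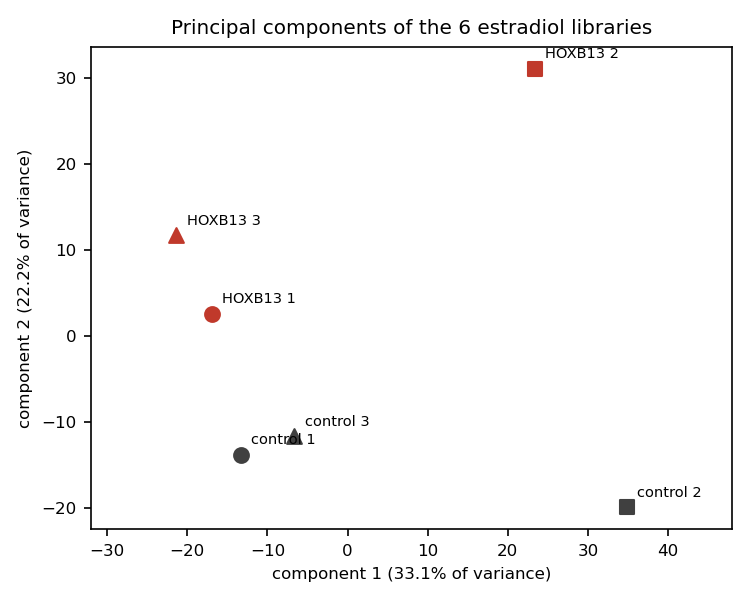
Principal components of log2 CPM in the 6 estradiol libraries. Each point is a library, red for HOXB13 and dark grey for control cells, with the shape giving the replicate number. Component 1 (33.1% of the variance) parts the libraries numbered 2 from the other 4, and component 2 (22.2%) parts the genotypes.

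Few genes differed between HOXB13 and control cells in estradiol when library numbers were ignored. With edgeR's quasi-likelihood test and a threshold of 0.05 on the Benjamini-Hochberg adjusted p, 2 genes rose, HOXB13 itself and BCHE, which are 0.0135% of the genes tested, and 0 genes fell (0%). Unadjusted, 210 genes were higher and 279 lower at p under 0.05 without the block, and 628 and 890 with it. About 740 in both directions together would be expected if none differed. By other tools without the block, limma-voom called 3 raised and 2 lowered and DESeq2 called 11 and 9. With the replicate number as a block, edgeR called 21 raised (0.142%) and 37 lowered (0.25%). All 58 moved in their direction in each of the 3 equally numbered pairs. The block selects genes for such agreement in these same libraries, so this is no separate support for them. The median standard error of a log2 fold change, over the 12109 genes averaging at least 1 log2 CPM, was 0.156 without the block and 0.102 with it. Over the same genes 98.1% of the log2 fold changes lay within 0.5 of 0, and 20 genes were at least 2-fold apart.

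The blocked counts depended on single libraries. Without control replicate 1 there were 12 raised and 11 lowered genes, without control replicate 2 there were 12 and 22, and without control replicate 3 there were 7 and 9. Without HOXB13 replicate 1 there were 23 and 24, and without HOXB13 replicate 2 there were 13 and 41. Leaving out all libraries numbered 2 gave 12 and 26 with the block and 8 and 13 without it. All 58 genes kept their direction in each of these fits. In the 6 blocked fits that each left out 1 estradiol library, 13 of the 58 genes were called every time: HOXB13, BCHE, GJA1, CLSTN2, ANGPT1 and the noncoding transcript RP11-206M11.7 among the raised, and SOD3, SULF2, PTRF, UPK3B, TIMP2, TFAP2B and C1QTNF6 among the lowered. Of the 58 genes, 7 were called in none of those 6 fits: UNC13A, ELOVL6 and STK32B among the raised, and ANXA2, HSPB1, RABAC1 and AC073464.6 among the lowered.

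**Figure D2:**
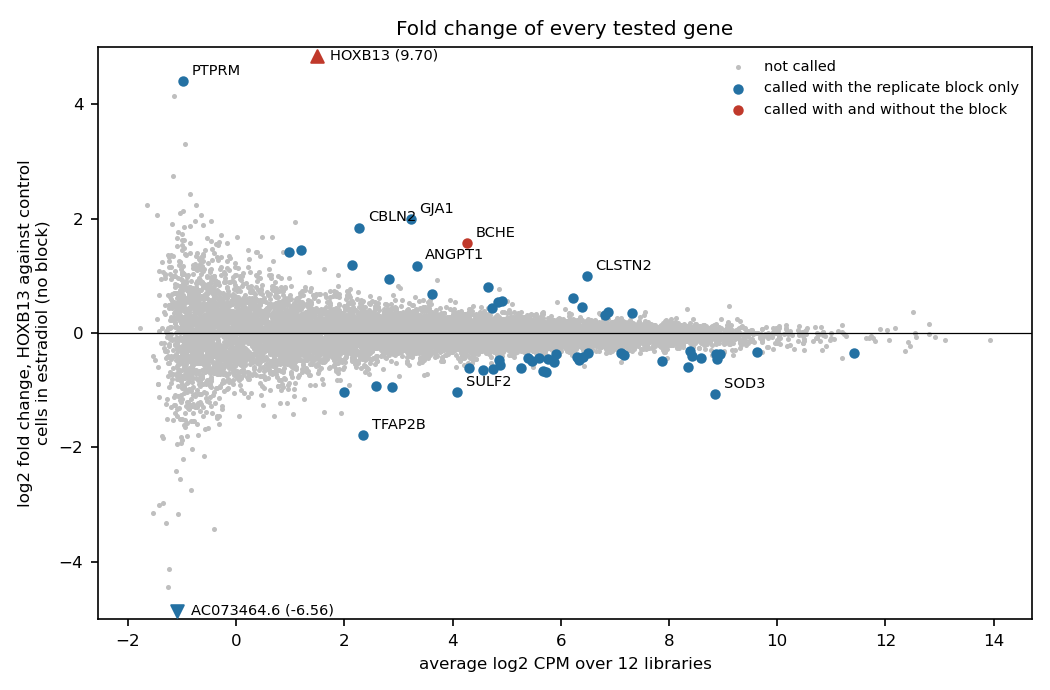
Log2 fold change of HOXB13 against control cells in estradiol, from the fit without the block, against the average log2 CPM of each of the 14799 tested genes. Red points were called with and without the block and blue points with the block only. Triangles mark HOXB13 (9.70) and AC073464.6 (-6.56), whose fitted values lie beyond the axis. BCHE is the only red point within the axis.

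BCHE, the serum cholinesterase that hydrolyses choline esters, was called in both fits. In replicates 1, 2 and 3 it was at 9.91, 8.15 and 8.58 CPM in control cells and at 30.1, 21.4 and 27.9 CPM in HOXB13 cells. Every HOXB13 library was above every control library, and replicate 2 was the lowest of each group. The means were 8.88 ± 0.919 and 26.4 ± 4.53 CPM (SD, n = 3), a 2.98-fold difference and a log2 fold change of 1.57 (SE 0.16, adjusted p = 0.00101 by edgeR; 5.60e-09 with the block). Leaving out single libraries gave log2 fold changes of 1.47 to 1.70, with the call kept each time.

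GJA1 (connexin 43), which forms channels between neighbouring cells, had the highest log2 fold change of all tested genes with a control mean of at least 5 CPM, but did not pass without the block. Control libraries held 6.35, 6.14 and 6.54 CPM and HOXB13 libraries 27.8, 19.9 and 27.8 CPM. Control values lay close together, and the lowest HOXB13 library was still far above them. The log2 fold change was 1.99 (SE 0.32, adjusted p = 0.107 by edgeR; 4.85e-04 with the block). It was also called by DESeq2, by limma-voom, within the 6 estradiol libraries alone and without the libraries numbered 2. The 11 tested gap junction genes, GJA1 included, had a median log2 fold change of -0.14 beside -0.0051 over all tested genes.

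Ligands and adhesion proteins were among the other raised genes, each called only with the block. CLSTN2, a calsyntenin of the cadherin superfamily, was at 47.6, 39.2 and 57.6 CPM in control and 108, 73.0 and 106 CPM in HOXB13 libraries (log2 fold change 0.99, SE 0.25; adjusted p 0.655, or 1.52e-05 with the block, by edgeR). ANGPT1, the angiopoietin ligand of the TIE2 receptor, was at 4.88, 4.80 and 6.45 CPM in control and 12.3, 9.59 and 14.7 CPM in HOXB13 libraries (log2 fold change 1.18; adjusted p 0.107, or 8.86e-05 with the block, by edgeR). For both genes the groups did not overlap, and replicate 3 was the highest control. CBLN2, a secreted organiser of synapses, rose from 1.18 ± 0.354 to 4.27 ± 1.20 CPM (SD, n = 3). PTPRM, a receptor tyrosine phosphatase of cell contacts, was near the limit of detection, with 1, 1 and 0 counts in control and 11, 29 and 7 in HOXB13 libraries. Its ratio was 25.2, with an exact 95% interval of 6.59 to 214 for counting error.

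Other genes that rose with the block have varied functions. STS, the steroid sulfatase that frees estrone from its sulfate, was at 52.6, 42.7 and 47.5 CPM in control and 64.2, 77.1 and 77.8 CPM in HOXB13 libraries. That gave a log2 fold change of 0.62 (SE 0.13; adjusted p 0.339, or 0.00413 with the block, by edgeR), and the groups did not overlap. ELOVL6, which elongates saturated fatty acids, had a log2 fold change of 0.44, the efflux pump ABCC5 0.46, the phospholipase PLCD4 0.68 and the kinase STK32B 1.46. SNTB1, a syntrophin of the dystrophin complex, went from 6.27 ± 0.565 to 12.1 ± 0.952 CPM, and CLCA2, a chloride channel regulator, from 1.68 ± 0.455 to 3.85 ± 0.888 CPM (SD, n = 3). UNC13A, which primes vesicles for release, went from 1.09 ± 0.145 to 2.92 ± 0.227 CPM. The remaining raised genes were FRS2, an adaptor of FGF receptors, the transcription regulators TRERF1 and ZNF281, the chaperone regulator DNAJC3 and the interferon-inducible PARP9. DNAJC3 was the only raised gene whose groups overlapped, since its replicate 2 was low in both groups, at 64.9 CPM in control and 85.9 CPM in HOXB13 cells. Over all tested genes, 4.51% had all HOXB13 libraries above all control libraries. The raised genes were called on these same libraries, so the lack of overlap in the others largely follows from how they were chosen.

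SOD3, which removes superoxide outside the cell, had the lowest log2 fold change among genes with a control mean of at least 100 CPM, and passed only with the block. Control libraries held 459, 625 and 434 CPM and HOXB13 libraries 210, 310 and 206 CPM. Replicate 2 was the highest in both groups, and the groups did not overlap. The means were 506 ± 104 and 242 ± 59.2 CPM (SD, n = 3), and the log2 fold change was -1.06 (SE 0.23, adjusted p = 0.339) without the block and -1.07 (SE 0.08, adjusted p = 1.47e-08) with it, by edgeR. The differences in log2 CPM within equally numbered pairs were -1.13, -1.01 and -1.07, which vary less than the log2 levels do within either group.

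**Figure D3:**
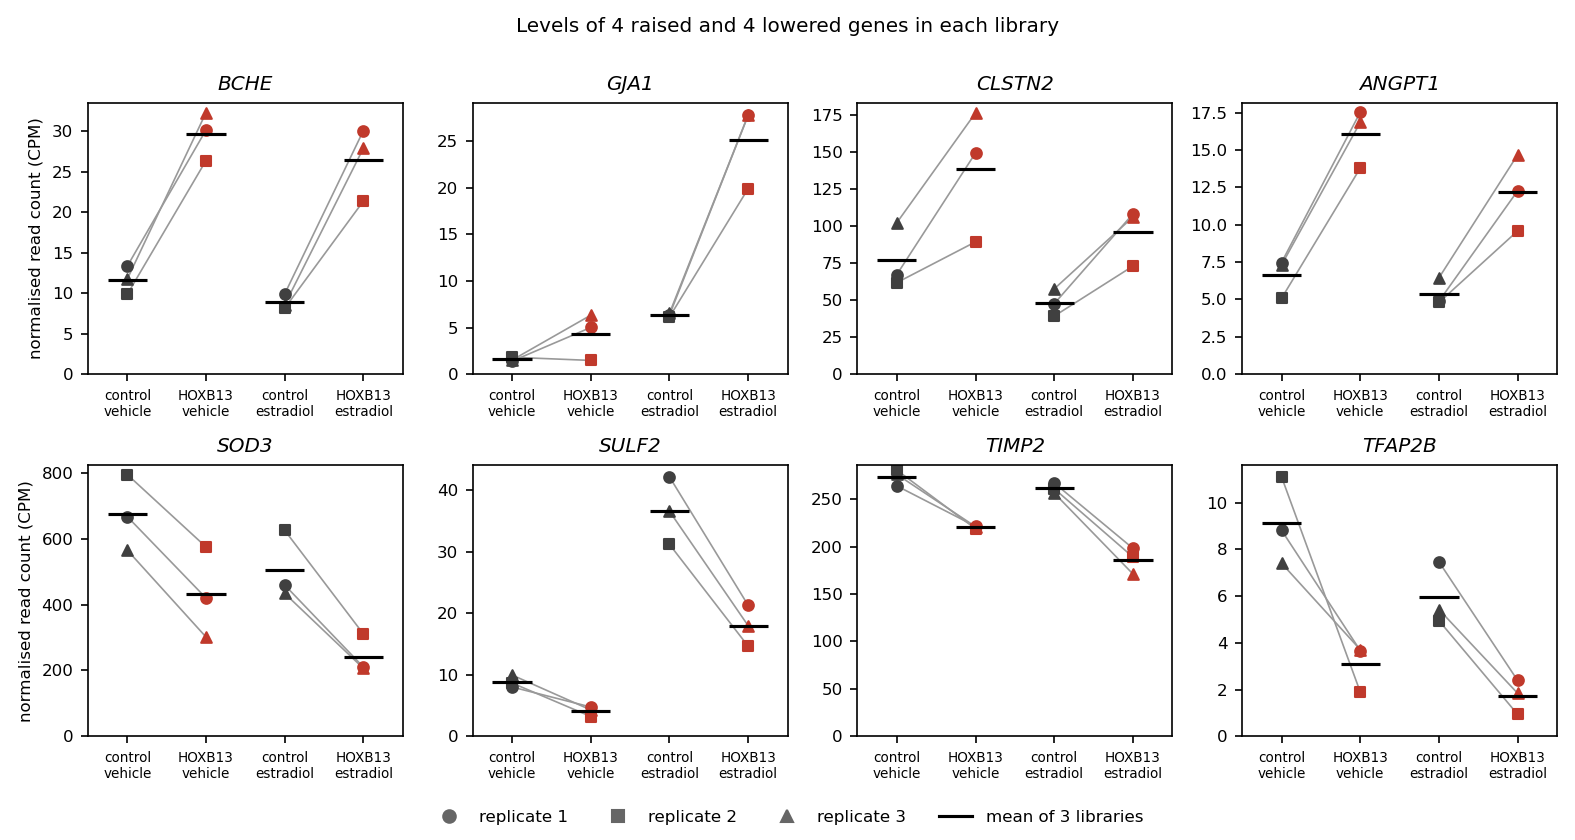
Normalised read count (CPM) of 4 raised and 4 lowered genes in all 12 libraries. Shapes give the replicate number, grey lines join equally numbered control and HOXB13 libraries of 1 treatment, and bars are means of 3. In estradiol the HOXB13 points of all 8 genes lie beyond the control points, while in vehicle GJA1, CLSTN2 and SOD3 overlap.

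Several of the lowered genes act at the cell surface or in the extracellular matrix, a grouping made after their values were seen and not tested. SULF2, an extracellular sulfatase that edits heparan sulfate, was at 42.2, 31.2 and 36.6 CPM in control and 21.3, 14.6 and 18.0 CPM in HOXB13 libraries (log2 fold change -1.03, SE 0.17; adjusted p 0.107, or 2.40e-05 with the block, by edgeR). TIMP2, an inhibitor of matrix metalloproteinases, was at 267, 261 and 257 CPM in control and 198, 189 and 171 CPM in HOXB13 libraries. Both genes had groups that did not overlap. The TIMP2 log2 fold change was -0.49 (SE 0.09; adjusted p 0.107, or 2.82e-04 with the block, by edgeR). OLFML3, a secreted olfactomedin-like protein, fell from 721 ± 56.6 to 556 ± 54.9 CPM and COL18A1, the collagen that gives endostatin, from 48.4 ± 1.34 to 35.9 ± 4.53 CPM (SD, n = 3). NPNT, an integrin ligand, BCAM, a laminin receptor, and FKBP10, a chaperone of collagen, had log2 fold changes of -0.56, -0.45 and -0.34.

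The next lowered genes encode signalling components, grouped after their values were seen and not tested. PDGFB, a platelet-derived growth factor chain, had 55.1, 53.9 and 57.2 CPM in control and 44.7, 37.3 and 39.2 CPM in HOXB13 libraries. INHBB, the activin B subunit, went from 125 ± 9.05 to 95.4 ± 5.55 CPM, and FSTL3, a follistatin-like binder of activins, from 25.5 ± 2.71 to 16.6 ± 0.402 CPM (SD, n = 3). PMEPA1, a feedback inhibitor of TGF-beta signalling that androgens also raise in prostate, had a log2 fold change of -0.42, and C1QTNF6, a secreted C1q-like protein, -0.63. TNFRSF12A, the receptor for the cytokine TWEAK, had -0.47. APOE, the lipid carrier, was at 318, 468 and 369 CPM in control and 257, 260 and 245 CPM in HOXB13 libraries, and its control libraries were the more spread.

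Membrane and signalling proteins made up most of the rest. PTRF, the caveolar coat protein cavin-1, was at 69.8, 65.0 and 67.9 CPM in control and 45.5, 44.5 and 38.2 CPM in HOXB13 libraries (log2 fold change -0.66, SE 0.11; adjusted p 0.107, or 6.42e-05 with the block, by edgeR). UPK3B, a uroplakin of specialised epithelial surfaces, went from 54.2 ± 13.2 to 33.7 ± 8.72 CPM (SD, n = 3), and its replicate 2 was the highest of each group. ANXA2 and S100A10, which form one membrane-binding complex, had log2 fold changes of -0.33 and -0.44. PLCE1, a Ras-regulated phospholipase C, had -0.61, PREX1, an activator of Rac, -0.36 and PLEKHG4B, a related exchange factor, -0.50. The channel genes CACNG4 and KCNC1 had -0.40 and -0.65, the sphingosine-1-phosphate exporter SPNS2 -0.48, and the cytoskeletal anchor ANK1 -1.04. STOM, FXYD5, RABAC1, CRIP2 and the small heat shock protein HSPB1 had values between -0.47 and -0.32. Groups overlapped for 5 of the 37 lowered genes: PLEKHG4B, NPNT, RABAC1, CRIP2 and HSPB1. Over all tested genes, 5.37% had all HOXB13 libraries below all control libraries. The 37 genes were called on these same libraries, so the lack of overlap in the others largely follows from how they were chosen.

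Among lowered regulators, again grouped after their values were seen, TFAP2B, an AP-2 factor of luminal cells, was at 7.47, 4.95 and 5.43 CPM in control and 2.39, 0.938 and 1.84 CPM in HOXB13 libraries, without overlap (log2 fold change -1.79, SE 0.33; adjusted p 0.152, or 0.00111 with the block, by edgeR). Its relatives TFAP2A and TFAP2C had log2 fold changes of -0.0019 and 0.15 and did not pass. EYA2, a phosphatase and coactivator, went from 7.31 ± 0.986 to 3.86 ± 0.722 CPM, and CDKN1A, the p21 inhibitor of cyclin-dependent kinases, from 96.8 ± 4.73 to 72.2 ± 4.52 CPM (SD, n = 3). IER3, an early response gene, had 56.0, 59.7 and 58.1 CPM in control and 41.5, 43.1 and 43.8 CPM in HOXB13 libraries. AC073464.6, a locus known by a clone name, had 16, 9 and 11 counts in control and 0 in all 3 HOXB13 libraries. With 3 counts in the pooled HOXB13 group as a floor it would be 11.2-fold lower. An exact 95% interval put the ratio of HOXB13 to control cells below 0.116 (counting error only). In vehicle it had 15, 11 and 25 counts against 0, 0 and 0.

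The estrogen receptor and its best-known targets did not pass with or without the block. ESR1 was at 170, 109 and 159 CPM in control and 178, 105 and 161 CPM in HOXB13 libraries, with a log2 fold change of 0.02 (SE 0.26), or 0.01 (SE 0.07) with the block. GREB1, a cofactor of the receptor, was at 630, 397 and 558 CPM in control and 594, 398 and 559 CPM in HOXB13 libraries. Replicate 2 was low for both genes in both groups, and the groups overlapped. PGR, the progesterone receptor, had a log2 fold change of -0.03 (SE 0.22) and the trefoil factor TFF1, at under 5 CPM, -0.27 (SE 0.41). The pioneer factor FOXA1 had 0.08 (SE 0.11), GATA3 -0.05 (SE 0.10), cyclin D1 (CCND1) -0.05 (SE 0.14), MYC 0.06 (SE 0.20) and IL17RB, the partner of HOXB13 in the prognostic ratio, 0.05 (SE 0.18). The sign of ESR1, PGR, GREB1, IL17RB, GATA3, CCND1 and MYC turned when single libraries were left out, and for CCND1 also without the libraries numbered 2.

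Of the 27 gene lists, 15 had no member past the threshold with the block, and the other 12 had 1 each. Over all tested genes 0.142% were raised and 0.25% lowered with the block. In the 12 lists with 1 called member, which held 11 to 34 tested genes, that member is a larger share than this. It is still a single gene per list, and the lists were chosen with earlier results of these data known. Whether any list differed as a set was not tested. None of the 50 tested estrogen-induced genes (median log2 fold change -0.07) and none of the 25 estrogen-repressed genes (median -0.05) passed, beside a median of -0.0051 over all tested genes. The same held for the 44 DNA replication and G1/S genes (median -0.07), the 40 of mitosis (0.02), the 24 of cholesterol synthesis (-0.06) and the 14 basal and myoepithelial genes (-0.0030). The members that passed were HOXB13 among 20 HOX genes, PMEPA1 among 22 androgen receptor targets, TFAP2B among 28 luminal genes, CLSTN2 among 23 cadherins, SULF2 among 23 heparan sulfate genes, and IER3 among 14 NF-kB genes. ELOVL6 among 25 fatty acid genes, DNAJC3 among 29 of the unfolded protein response, CDKN1A among 23 p53 targets, PARP9, GJA1 and SOD3 complete them.

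The 34 tested type I interferon response genes had a median log2 fold change of 0.23, and 28 of them were above 0 (82.4%, against 48.9% of all tested genes). In 8 of the 34 (23.5%) all HOXB13 libraries were above all control libraries: PARP9, DDX60, MX1, OAS1, IFIT1, OAS2, HERC6 and ISG15. Over all tested genes that share was 4.51%, and for the opposite order it was 5.37%, with 0 interferon genes. MX1, an antiviral GTPase, was at 34.9, 42.1 and 45.8 CPM in control and 51.4, 62.2 and 66.0 CPM in HOXB13 libraries, with an adjusted p of 0.999 by edgeR, or 0.635 with the block. In the fit of the 6 estradiol libraries alone with the block, MX1 did pass (adjusted p = 2.61e-04 by edgeR). PARP9 was the list's only member called in the fit of all 12 libraries with the block, from 20.6 ± 1.72 to 30.1 ± 2.01 CPM (SD, n = 3). In the vehicle libraries the list's median was 0.34 and 30 of the 34 genes were above 0. Over all tested genes the vehicle median was 0.0010 and 7438 of 14799 were above 0. In vehicle the groups of MX1 overlapped and those of PARP9 did not, and neither gene passed there with or without the block.

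**Figure D4:**
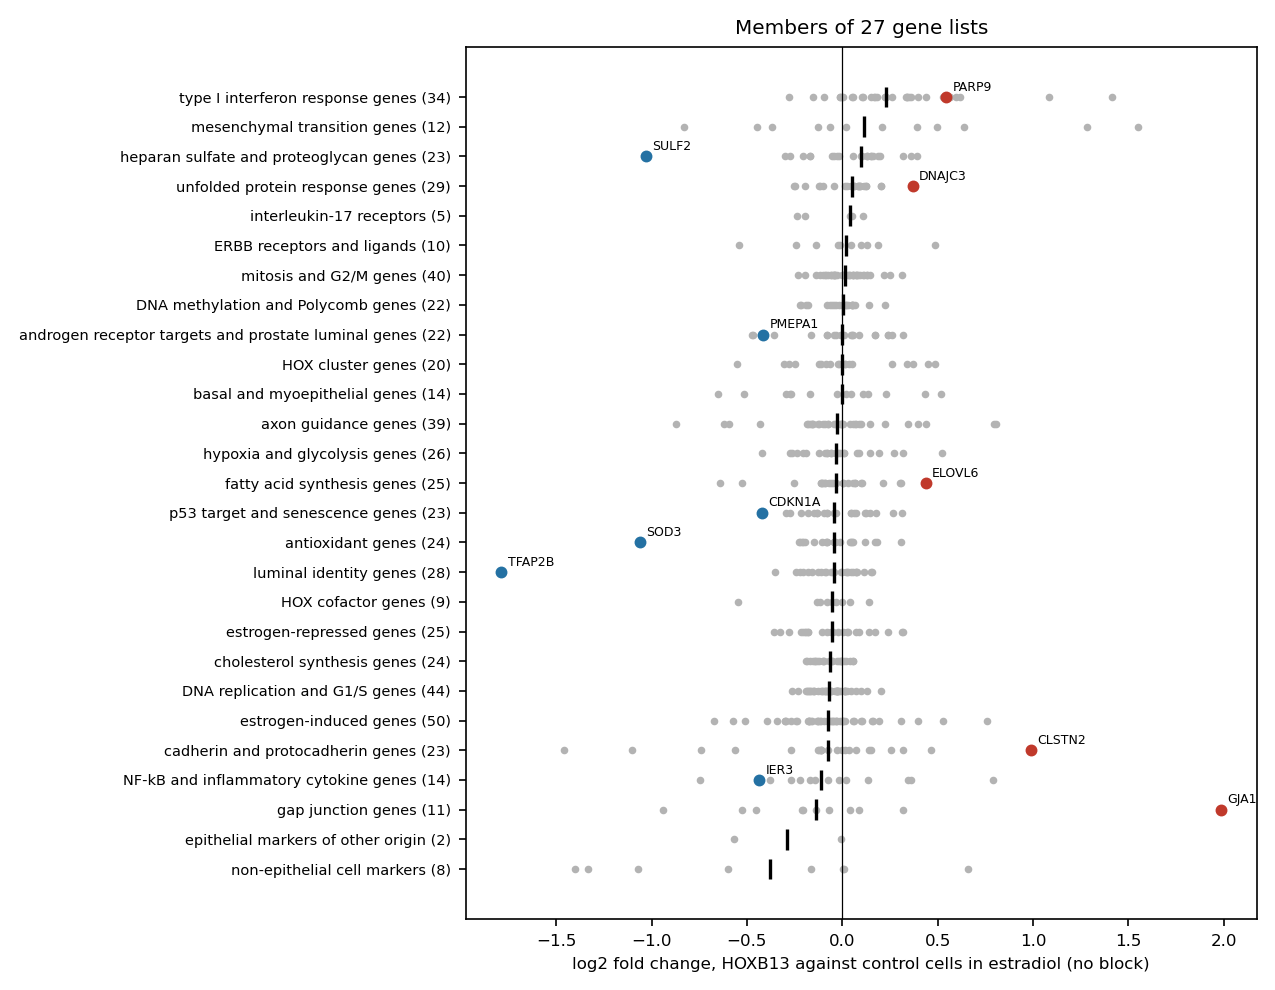
Log2 fold change of HOXB13 against control cells in estradiol (no block) for the tested members of 27 gene lists, with the number tested in brackets and the list median as a black bar. Labelled points were called with the block, red raised and blue lowered, and HOXB13 is left out. Of the 27 medians, that of the interferon genes (0.23) lies farthest right.

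No library belongs to both the estradiol and the vehicle comparison, so genes chosen in estradiol were looked up there. The labels give both comparisons the same line and genotypes, and do not say whether they share cultures. Within the 6 estradiol libraries alone the block called 38 raised and 68 lowered genes. Leaving out HOXB13, 104 of the 105 had the same sign in the 6 vehicle libraries (99.0%), against 61.0% of the 13823 genes tested in both. At an unadjusted vehicle p under 0.05 and the same sign there were 76 of the 105 (72.4%), against 7.15% of all. Of the 105, 23 were themselves called in vehicle, which are 21.9% of the estradiol list and 56.1% of the 41 called in vehicle. The median size of the log2 fold change was 0.47 in estradiol, where the genes were chosen, and 0.31 in vehicle. The exception in sign was FXYD5, a modulator of the sodium pump, at -0.46 in estradiol and 0.30 in vehicle. The difference between its log2 fold changes over all 12 libraries was -0.76 (SE 0.27) without the block. FXYD5 did not pass edgeR's test of that difference in either fit. Its adjusted p was 0.999987 without the block (unadjusted 0.0133) and 0.468 with it (unadjusted 3.16e-05).

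**Figure D5:**
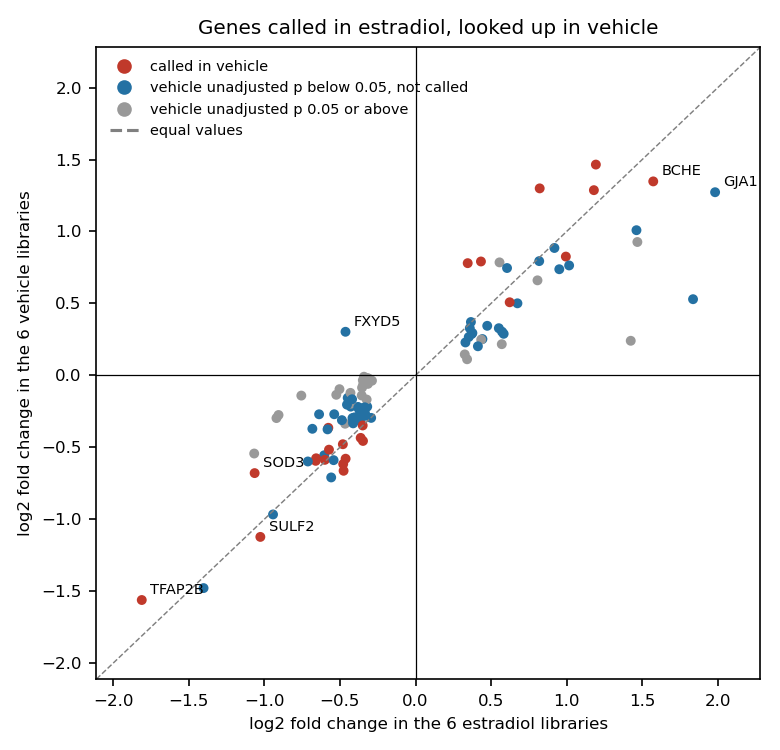
Log2 fold change of HOXB13 against control cells, both fits with the block, for the 105 genes other than HOXB13 called in the 6 estradiol libraries (x axis) and in the 6 vehicle libraries (y axis). Red points were called in vehicle, blue points had an unadjusted p under 0.05 there, and grey points did not. The upper right and lower left fields hold 104 of the 105 points.

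Several of these genes had other levels in vehicle, set side by side here. BCHE was at 13.3, 9.87 and 11.7 CPM in control and 30.1, 26.4 and 32.3 CPM in HOXB13 libraries, again without overlap (log2 fold change 1.34, adjusted p = 0.00542 by edgeR). GJA1 was lower in vehicle, at 1.40, 1.82 and 1.51 CPM in control and 5.01, 1.48 and 6.33 CPM in HOXB13 libraries. There HOXB13 replicate 2 lay within the control range, and the adjusted p was 0.622 by edgeR, or 0.088 with the block. SULF2 was at 8.02, 8.67 and 9.97 CPM in control and 4.76, 3.22 and 4.29 CPM in HOXB13 libraries, and SOD3 at 667, 794 and 565 against 420, 575 and 301 CPM. With the block SULF2, SOD3, TFAP2B, TIMP2 and PTRF also passed in vehicle, with adjusted p of 1.96e-04, 5.80e-05, 0.00127, 0.0372 and 4.67e-04 by edgeR. Of the 58 genes called with the block in estradiol, leaving out HOXB13, 20 of 20 raised and 36 of 37 lowered genes had the same sign in vehicle. These vehicle signs are from the fit over all 12 libraries without the block. The share over all tested genes was not worked out for that fit, and in the separate fits of 6 libraries it was 61.0%. The genes were called in a fit that also held the vehicle libraries, so this is not a separate look.

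Whether the HOXB13 difference itself differed between estradiol and vehicle was tested per gene. edgeR called 0 of 14799 genes without the block and 0 with it, with 219 and 585 genes at an unadjusted p under 0.05, and DESeq2 and limma-voom called 0. The differences that follow are from the fit without the block. BCHE had a difference between the 2 log2 fold changes, estradiol minus vehicle, of 0.23 (SE 0.23), GJA1 0.55 (SE 0.50), SOD3 -0.42 (SE 0.32) and SULF2 0.09 (SE 0.26). Their unadjusted p by edgeR was 0.329, 0.288, 0.212 and 0.739 without the block, and 0.184, 0.161, 0.00240 and 0.607 with it. Among genes with the smallest unadjusted p, ADRA2A, an alpha-2 adrenergic receptor, had 20.4, 20.2 and 21.2 CPM in control and 24.3, 18.1 and 23.9 CPM in HOXB13 libraries in estradiol. In vehicle it had 0.953, 1.96 and 1.72 CPM in control and 5.51, 2.32 and 6.90 CPM in HOXB13 libraries. Its difference was -1.56 (SE 0.43, unadjusted p = 0.00290), and without the libraries numbered 2 it was -2.00 (SE 0.30) and passed, at an adjusted p of 0.0142 by edgeR. ZNF439, a zinc finger gene, had 1.41 (SE 0.40) and SEC14L2, a lipid-binding protein, 0.77 (SE 0.23), and neither passed. CCDC96 and NXPH3 had a smaller unadjusted p than ADRA2A, at 0.00165 and 0.00243 by edgeR without the block. Their differences were -1.20 (SE 0.31) and -1.22 (SE 0.33), and neither passed.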

How the data were processed

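RNA sequencing covered 12 libraries in 4 groups of 3. The values the authors deposited are raw read counts, with 1 row per symbol and 1 column per library. Per the submitters' processing notes, the tools were FastQC, STAR, Picard and HTSeq, with the builds GRCh37 and hg19. No source used here gives versions, annotation or strand setting, so overlapping and antisense genes may share reads. All 12 columns matched a library. Of 55882 symbols, 30284 had no count. edgeR 4.0.16 (R 4.3.3) kept 14799 genes by filterByExpr (minimum count 10, minimum total 15), scaled libraries by TMM and fitted group means over all 12 libraries with its robust quasi-likelihood F test. P-values were adjusted by Benjamini-Hochberg over every tested gene, with a threshold of 0.05. Levels are CPM on TMM-scaled library sizes, with totals of 17679824 to 21385996 counts, and log2 values used a prior count of 2. The scripts were tested on simulated data.

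The replicate number entered as a block in a second fit, since equally numbered estradiol libraries deviated together (0.124, 0.311 and 0.123); the numbers come from the sample titles. Estradiol replicates differed by more than sampling noise (chi-square divided by its degrees of freedom, 6.86 to 31.1). Alternatives were no filter, relative log expression factors, DESeq2 1.42.0, limma-voom (limma 3.58.1), the 6 estradiol libraries alone, each library left out, and all libraries numbered 2 left out. Exact permutation tests were not used, because with 3 libraries a side their smallest two-sided p is 0.1. Exact intervals used a 95% level.

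The comparison, the 27 gene lists and the naming rule were chosen with earlier results of these data known. The rule named 13 genes in any case, up to 12 per direction by fold without the block, up to 8 per direction called only with the block, up to 3 per list, and up to 5 per direction by the difference between treatments; all other genes called with the block were named after their values were seen, as were the genes counted in the interferon list. Promoters were matched by symbol in a RefSeq table on GRCh38.p14, another build than the counts used. Of the genes called with the block, 1 is not reported here.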

Additional observations from a re-analysis of the deposited data

How the results depend on the processing

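Without the replicate block 2 genes were raised and 0 lowered, and the difference between treatments called 0. Without a filter on low counts these became 16, 14 and 4, with DESeq2 11, 9 and 0, with limma-voom 3, 2 and 0, and without the libraries numbered 2 they became 8, 13 and 1 (ADRA2A). The replicate block gave 21, 37 and 0, and the replicate block within the 6 estradiol libraries 38 and 68. Each fit without 1 estradiol library gave 2 raised and 0 lowered genes and 0 for the difference. Relative log expression factors and a 2-fold minimum left 2, 0 and 0.

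The blocked counts, 21 raised and 37 lowered, have alternatives chosen after seeing the data. They became 64 and 125 without a filter, 37 and 95 with DESeq2, 38 and 68 within the 6 estradiol libraries, 12 and 26 without libraries numbered 2, and 9 and 5 with a 2-fold minimum; without single libraries they ranged from 7 to 23 and from 9 to 41. Of the 58 genes, 52 were called with relative log expression factors, 51 with limma-voom, 56 with DESeq2 and 25 without libraries numbered 2. The share with the same sign in vehicle was 98.3%, 98% and 97.5% for lists from DESeq2, limma-voom and libraries numbered 1 and 3. The cause of these changes was not tested.

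None of the 58 called genes changed sign in these fits. Among genes that never passed, log2 fold changes crossed 0 when single libraries were left out: ESR1 ranged from -0.15 to 0.21, PGR from -0.17 to 0.11, GREB1 from -0.20 to 0.13, IL17RB from -0.045 to 0.14, GATA3 from -0.084 to 0.011, CCND1 from -0.13 to 0.061 and MYC from -0.067 to 0.20. Without the libraries numbered 2, CCND1 was at 0.015. Depth limits genes under about 1 CPM, where a library holds some 20 counts.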

Other observations

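Other genes met the threshold when the libraries numbered 2 were left out, in a fit without the block over the remaining 8 libraries, chosen here after their values were seen. CA11, a carbonic anhydrase-related protein, had a log2 fold change of 1.62 (SE 0.31, adjusted p = 0.0254 by edgeR) and MGP, the matrix Gla protein that limits calcification, 0.67 (SE 0.11, adjusted p = 0.00624). TRIM29, a basal epithelial protein, had -0.88 (SE 0.13, adjusted p = 0.00221) and the focal adhesion protein TNS3 -0.52 (SE 0.10, adjusted p = 0.0320). These 4 genes were not called over all 12 libraries, with or without the block.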
